A study of Homo sapiens with 28 samples.

Results

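The androgen effect on each gene was compared between LNCaP cells that were and were not treated with SNX631, using the interaction of both agents after 72 h. LNCaP is an androgen-responsive human prostate cancer cell line, R1881 is a synthetic androgen, and SNX631 inhibits CDK8 and its paralog CDK19, the kinases of the Mediator complex. The comparison used 16 of the 28 libraries of the series, all of cells held for 72 h before treatment in charcoal-stripped medium, in which steroid hormones are depleted. The groups, of 4 libraries each, received, for 72 h, DMSO vehicle, R1881 (1 nM), SNX631 (500 nM) or both agents at those doses. The series design calls the replicates biological, and all cells are of 1 line. The interaction is the log2 fold change by R1881 with SNX631 minus the log2 fold change by R1881 without it, so a negative value means a smaller rise or a larger fall under SNX631. Of 16074 genes tested, 192 were differentially regulated in this sense (1.19%) at a false discovery rate (FDR) under 0.01 and a ratio of the androgen folds over 1.5, with 60 higher (0.373%) and 132 lower (0.821%).

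Androgen acts on its target genes through response elements, to which coactivators are recruited, among them Mediator, the complex that links transcription factors to RNA polymerase II. CDK8 or CDK19, together with cyclin C, MED12 and MED13, forms a module that binds Mediator reversibly and phosphorylates transcription factors and parts of the transcription machinery. In prostate luminal cells androgen drives secretory genes such as the kallikreins, and in LNCaP cells it also sets the rate of proliferation.

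The genes called for the interaction were sorted by the effect of R1881 without SNX631, which passed the same limits in 3184 genes (19.8%), 1559 higher (9.7%) and 1625 lower (10.1%). Of the raised genes, 73 had a weaker rise under SNX631 and 14 a stronger rise. Of the lowered genes, 18 had a weaker fall and 17 a stronger fall. A weaker effect here includes one that was lost under SNX631 or that turned without passing the fold limit. A further 70 genes were not called for R1881 without SNX631, of which 28 had a higher and 42 a lower interaction. The interaction was called in 5.58% of raised genes, 2.15% of lowered genes and 0.543% of the genes not called, while the median interaction was -0.0996 in raised genes, 0.0501 in lowered genes and -0.00671 over all genes tested. The vehicle and R1881 libraries enter both the sort and, with opposite sign, the interaction. Their errors alone therefore push raised genes to lower and lowered genes to higher interactions. Sorting by the mean R1881 effect over both inhibitor states avoids this in a balanced design. It gave 63 raised and weaker, 24 raised and stronger, 10 lowered and weaker and 33 lowered and stronger genes. A ratio of at least 2 between the androgen folds was reached by 43 of the 192 genes, 15 higher and 28 lower. None of the 192 was called higher with R1881 in one inhibitor state and lower in the other: 87 were called for R1881 in both states, 35 only without SNX631, 51 only with it and 19 in neither. This rests on the fold limit. The log2 R1881 effects without and with SNX631 had opposite signs, each at an FDR under 0.01, in genes such as JAG1 (0.49 and -0.29), UGT2B28 (0.61 and -0.32) and HMGN2P46 (-0.79 and 0.47).

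**Figure D1:**
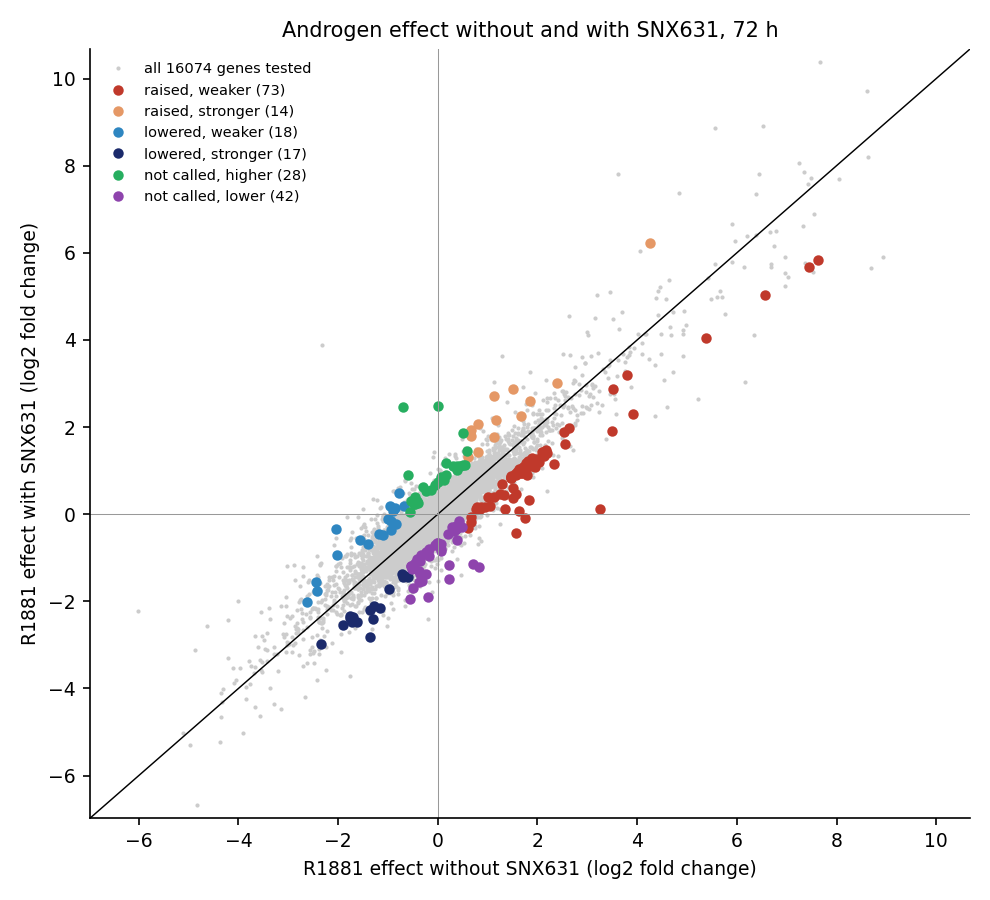
Log2 fold change by R1881 without SNX631 (horizontal) and with SNX631 (vertical) for 16074 genes, with the 192 called for the interaction coloured by class and the line of equal effects drawn. The 73 raised, weaker genes lie below the line on the right and are the largest class.

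The 73 raised genes with a weaker rise took different forms, told apart by what SNX631 did in each androgen state. SNX631 itself was called in 766 genes (4.77%) without R1881, of which 454 were higher (2.82%) and 312 lower (1.94%), and in 663 genes (4.12%) with R1881, of which 303 were higher (1.89%) and 360 lower (2.24%). In 48 of the 73 genes SNX631 raised the gene without R1881. In 15 others SNX631 lowered the gene in the presence of R1881, and 10 were called in neither of these ways. The mean level was highest with both agents in 40 of the 48 genes of the first form, and highest with R1881 alone in all 15 of the second. The latter follows largely from the selection, as these 15 were called higher with R1881 than with vehicle and than with both agents.

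KLK3, which encodes prostate-specific antigen, and its neighbour KLK2, a related secreted protease, belonged to the second form. Their promoters are shown because they held the same 13 letters of an androgen response element. The windows are the 250 bases upstream of the RefSeq gene start (GRCh38.p14, both on the plus strand), at chr19:50854665-50854914 for KLK3 and chr19:50873189-50873438 for KLK2, with the match in capitals. The GENCODE annotation of KLK2 begins at 50861568, so the KLK2 window lies inside that gene span. The element searched was GNACA, 4 free bases and GTNC.
KLK3: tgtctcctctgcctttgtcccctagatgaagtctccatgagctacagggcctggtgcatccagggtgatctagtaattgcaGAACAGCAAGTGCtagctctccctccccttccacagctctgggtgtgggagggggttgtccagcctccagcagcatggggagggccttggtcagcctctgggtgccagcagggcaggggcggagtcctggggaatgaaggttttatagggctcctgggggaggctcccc
KLK2: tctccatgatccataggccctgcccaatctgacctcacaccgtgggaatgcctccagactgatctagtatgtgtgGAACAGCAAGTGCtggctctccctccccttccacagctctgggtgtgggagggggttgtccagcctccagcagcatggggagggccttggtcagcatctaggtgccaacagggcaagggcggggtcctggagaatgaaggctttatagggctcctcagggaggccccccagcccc
The match began 169 bases upstream of the KLK3 start and 175 bases upstream of the KLK2 start, and the windows also shared an unbroken run of 80 bases. This relaxed form of the element, searched on both strands, was present in 2 of the 60 raised, weaker genes with a window, these kallikreins, in 1.52% of the genes raised by R1881 and in 1.34% of all 10968 tested genes with a window. The stricter form, GNACA, 3 free bases and TGTNC, which the relaxed form includes, was found in 0 of the 60 and in 0.128% of all. A match describes letters and not a bound site, and elements outside the 250 bases were not searched.

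KLK3 stood at 1.22, 1.6, 1.54 and 1.4 CPM (a gene's count scaled by the library's total) in vehicle libraries, 0.698, 1.69, 1.36 and 1.79 with SNX631, 130, 134, 147 and 141 with R1881, and 48.3, 46.1, 45.6 and 44.5 with both. The groups without androgen overlapped, and all libraries with both agents lay below all with R1881 alone. The rise was 95.1-fold without and 32.8-fold with SNX631 (interaction -1.53 ± 0.26 SE on the log2 scale, FDR = 6.19e-05). KLK2 reached 334, 343, 330 and 353 CPM with R1881 and 84.2, 84.2, 92.8 and 99.7 CPM with both, from 1.38 to 2.06 CPM without androgen (interaction -1.78 ± 0.24, FDR = 1.52e-06). These genes are paralogs, and how reads that match both were counted is not given in the sources used here.

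UGT2B28, one of the UGT2B enzymes that conjugate androgens with glucuronic acid, gave 49.5, 49.4, 47.8 and 44.6 CPM in vehicle libraries and 75.1, 73.2, 73.2 and 69.9 CPM with R1881. With SNX631 it gave 25.1, 23.1, 23.6 and 20.4 CPM without androgen and 17.1, 19.6, 18.8 and 18.1 CPM with it. R1881 therefore raised UGT2B28 1.52-fold without the inhibitor, whereas the libraries with both agents were all below those with SNX631 alone, by 1.25-fold, a difference under the fold limit (interaction -0.93 ± 0.08, FDR = 3.61e-11). It was the only one of 7 UGT2B enzymes tested that R1881 raised, as R1881 lowered the other 6 (9.7% of all genes were called higher and 10.1% lower), and the only one called for the interaction (0.821% of all genes lower). At an unadjusted p under 0.05 for the interaction by edgeR, 3 of the 7 were lower and 3 higher. The members of this family share sequence, and the related pseudogene UGT2B24P, at 0.777 ± 0.253 CPM in vehicle and 2.31 ± 0.288 CPM in R1881 libraries (SD, n = 4), was also in this class (interaction -1.99 ± 0.44, FDR = 0.00116).

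SGK1, a serum- and steroid-responsive kinase, rose from 1.91, 1.52, 1.28 and 1.32 CPM in vehicle libraries to 6.48, 5.3, 5.34 and 4.65 CPM with R1881. It was at 2.97, 2.38, 2 and 1.53 CPM with SNX631 and at 2.55, 2.57, 2.88 and 3.15 CPM with both, ranges that overlapped (interaction -1.50 ± 0.27, FDR = 7.22e-05). ELOVL7, a fatty acid elongase, started at the same level in either state, 10.9 to 12.1 CPM in vehicle and 11.3 to 12.2 CPM in SNX631 libraries. It rose to 138, 125, 135 and 125 CPM with R1881 but to 85.4, 89.8, 82.9 and 81.3 CPM with both agents (interaction -0.64 ± 0.09, FDR = 4.8e-06). HERC5, an interferon-inducible ligase of the ISG15 pathway, stood at 3.58 to 4.52 CPM in vehicle, 2.1 to 2.98 CPM with SNX631, 12.1 to 13.4 CPM with R1881 and 4.85 to 5.42 CPM with both, so that SNX631 lowered it without androgen too, by a log2 fold change of -0.59 against -1.34 with androgen (interaction -0.75 ± 0.18, FDR = 0.00285), but the FDR was 0.0104 to 0.0155 without vehicle replicate 2 or SNX631 replicate 3 or 4. CARTPT, which encodes a neuropeptide precursor, had 1 to 3 counts in each vehicle library, so that its rise to a mean of 1.66 CPM with R1881 was at least 6.76-fold against a floor of 3 counts per library, and its fitted interaction is no bound.

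**Figure D2:**
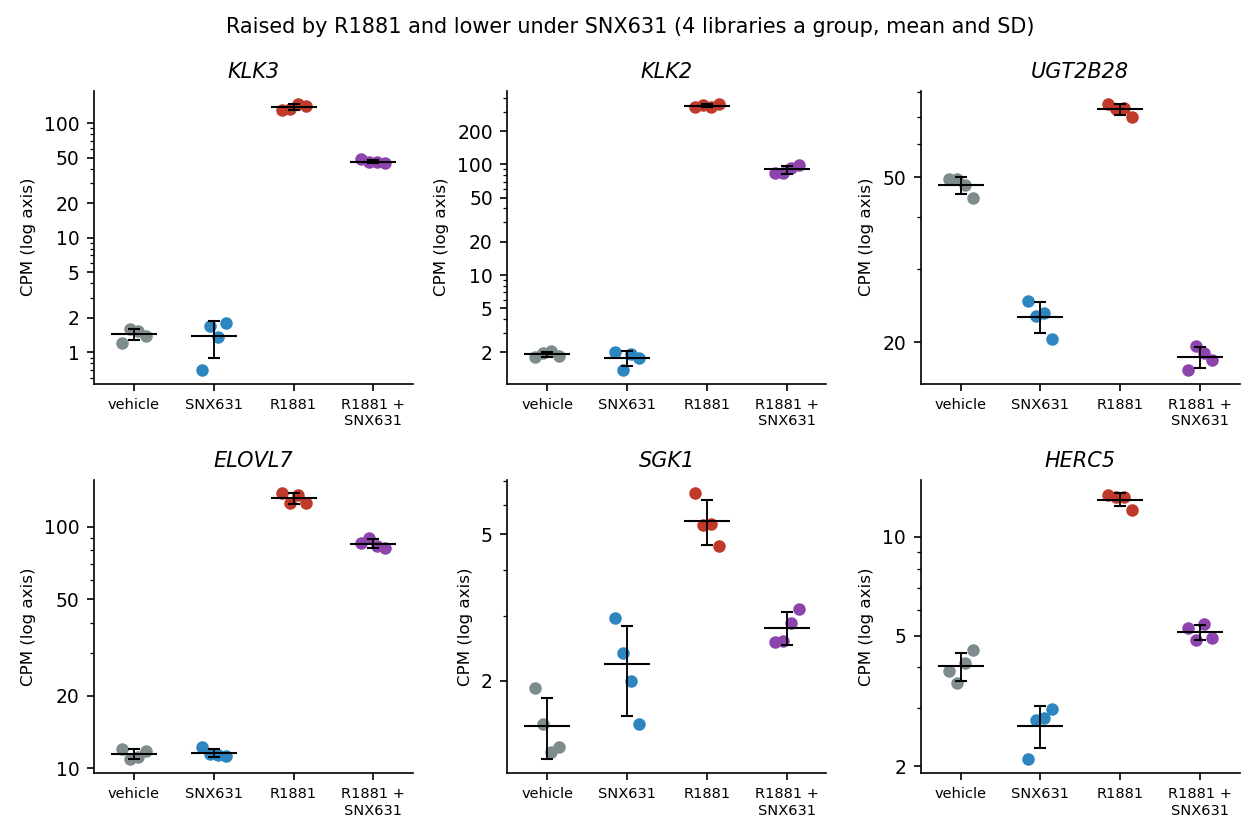
CPM in each of 16 libraries (points, log axis) with the group mean and SD (bars) for 6 genes that R1881 raised and that SNX631 lowered in its presence. KLK3 lies at 130 to 147 CPM with R1881 and 44.5 to 48.3 CPM with both agents.

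Most known androgen targets were not called for the interaction. Of 99 tested genes in a list of androgen-induced targets written from general knowledge, R1881 raised 87 without SNX631 and 81 with it. The interaction was called lower in 4 (KLK2, KLK3, SGK1 and ELOVL7) and higher in 1 (HPGD), against 0.821% and 0.373% of all genes. Among all genes raised by R1881 without SNX631, 4.68% were called lower and 0.898% higher, so these calls do not set the list apart from them. DESeq2 called 3 of the 99 lower and 0 higher. At an unadjusted p under 0.05 by edgeR, 30 of the 99 were lower and 26 higher. Whatever the fold, 15 had an FDR under 0.01 with a lower and 13 with a higher interaction, and the list's median interaction was -0.0314. CAMKK2, a calcium-dependent kinase kinase induced by androgen, was on the lower side (-0.37, FDR = 4.2e-07), and SPDEF, a luminal ETS factor, was on the higher side (0.33, FDR = 5.4e-06), both under the fold limit.

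Of the 48 genes of the first form, 10 were on the cell cycle list used here, a count that leaves out cell cycle genes not on the list. Among those, named after their values were seen, CDC45, ORC1, CLSPN and TICRR act in DNA replication, and NDC80, NCAPG, KIF15, KIF18B, CDCA8, CEP55 and SKA1 in mitosis or cytokinesis. A list of 64 tested cell cycle genes had 10 members called lower for the interaction and 0 called higher. The 10 were 15.6%, against 0.821% of all genes and 4.68% of the genes raised by R1881 without SNX631. At an unadjusted p under 0.05 in edgeR's quasi-likelihood test, 50 of the 64 were lower and 1 higher, and DESeq2 called 9 lower and 0 higher. R1881 raised 61 of the 64 without SNX631 and 59 with it. SNX631 raised 56 of them without R1881 and 13 in its presence, and was called lower for 0 in either state. With no limit on the fold, 37 of the 64 had an FDR under 0.01 with a lower interaction and 1 (CCND1, cyclin D1) with a higher one, and the median interaction was -0.332. Under a test against a fold of 1.5 at an FDR under 0.05, 0 of the 64 were called, as these interactions lay near the limit.

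RRM2, the small subunit of ribonucleotide reductase, stood at 32.3, 35.7, 32.7 and 34 CPM in vehicle libraries and at 69.6, 76, 68.8 and 64.5 CPM with SNX631. With R1881 it reached 155, 151, 159 and 147 CPM, and with both agents 178, 185, 189 and 184 CPM. The 4 groups did not overlap and the level was highest with both, yet the androgen fold was 4.53 without and 2.64 with SNX631 (interaction -0.78 ± 0.06, FDR = 1.67e-12). MCM10, a replication initiation factor, followed the same order, with 8.6 to 11.9, 23.1 to 28.3, 35.7 to 38.7 and 55.4 to 59.2 CPM (interaction -0.77 ± 0.10, FDR = 2.64e-07). CDC6, which loads the replicative helicase, had 19.6 to 20.9, 43.6 to 47.2, 72.8 to 80.4 and 110 to 116 CPM (interaction -0.60 ± 0.06, FDR = 6.95e-09), and fell under the fold limit without vehicle replicate 1 (-0.58) or R1881 replicate 4 (-0.57).

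The group means of KIF20A, E2F7 and MKI67 had the same order. KIF20A, a kinesin of cytokinesis, was at 8.77 to 12.5 CPM in vehicle, 21.1 to 22 CPM with SNX631, 44.5 to 47.6 CPM with R1881 and 56 to 59.5 CPM with both (interaction -0.67 ± 0.09, FDR = 5.84e-07). E2F7, a repressor of the E2F family, was at 2.43 to 3.66, 6.98 to 9.17, 13.1 to 14.8 and 17.8 to 22.3 CPM (interaction -0.79 ± 0.16, FDR = 0.000499). MKI67, the proliferation antigen Ki-67, was at 30.8 to 35, 62.2 to 72.7, 96.7 to 120 and 126 to 171 CPM (interaction -0.59 ± 0.10, FDR = 6.96e-05). The call of MKI67 lay at the fold limit and was lost, at interactions from -0.50 to -0.58, without vehicle replicate 1 or 2, SNX631 replicate 2 or 3, R1881 replicate 2, 3 or 4, or replicate 4 with both agents. CDC25C, KIF2C, UHRF1 and DTL completed the 10, with interactions between -0.61 and -0.68. Leaving out 1 library also lost CDC25C (vehicle replicate 1, 3 or 4, SNX631 or R1881 replicate 3; FDR up to 0.0225), UHRF1 (replicate 2 of any group; -0.56 to -0.58) and KIF2C (SNX631 replicate 2; -0.57). In bulk RNA, more cells in a cycle phase and more RNA per cell cannot be told apart.

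**Figure D3:**
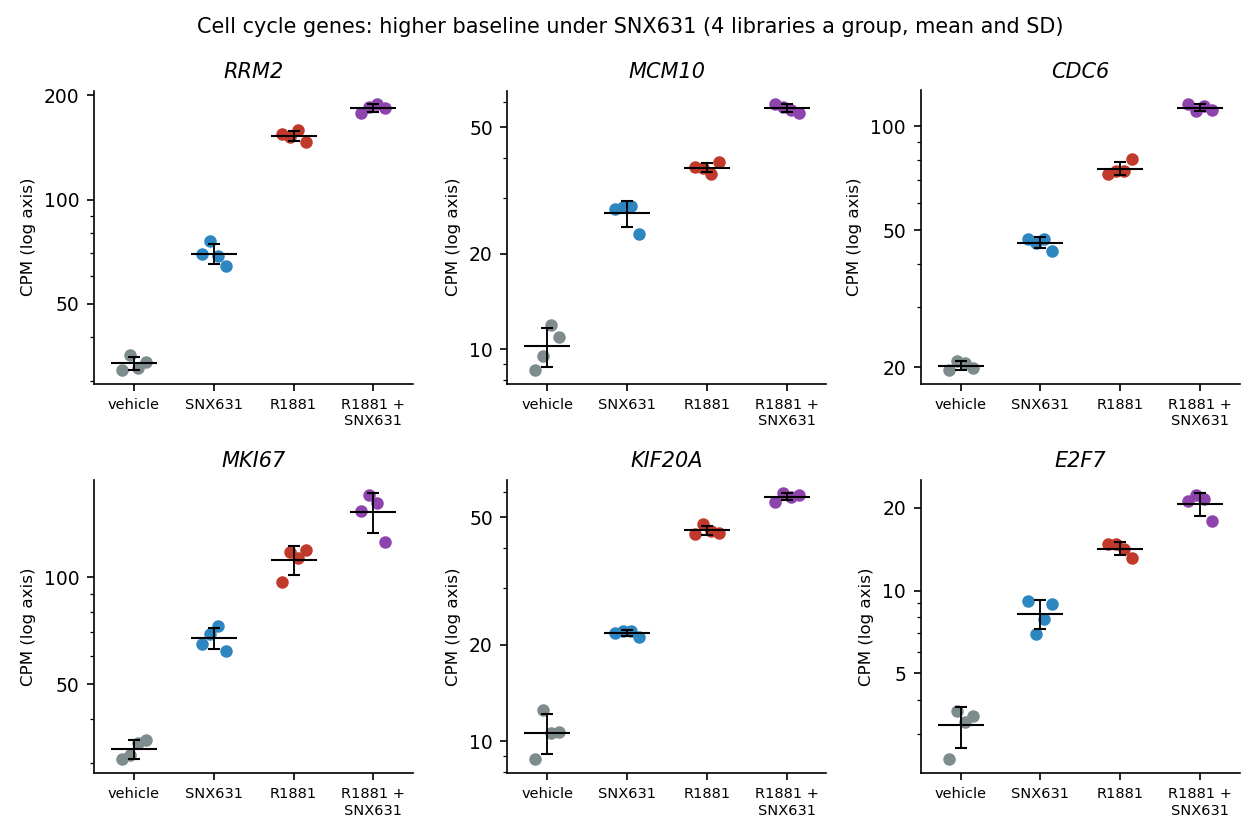
CPM in each of 16 libraries (points, log axis) with the group mean and SD (bars) for 6 cell cycle genes. In each the order of the group means was vehicle, SNX631, R1881, then both agents, and RRM2 ran from 32.3 CPM in a vehicle library to 189 CPM with both.

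The promoter of MKI67 is shown for the cell cycle gene homology region, TTTGAA, a motif of genes expressed late in the cycle, which was searched together with 3 other motifs after the classes had been seen. It lies at chr10:128126424-128126673 on the minus strand of GRCh38.p14, and the motif is in capitals.
MKI67: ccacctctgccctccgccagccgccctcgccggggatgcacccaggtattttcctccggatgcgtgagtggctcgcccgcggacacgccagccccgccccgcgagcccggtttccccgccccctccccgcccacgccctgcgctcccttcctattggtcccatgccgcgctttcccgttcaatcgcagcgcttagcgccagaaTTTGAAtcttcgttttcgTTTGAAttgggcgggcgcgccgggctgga
The copies began 47 and 29 bases upstream of the start. On either strand, TTTGAA was present in 9 of the 42 genes of the first form with a window (21.4%), in 13.3% of the genes raised by R1881 and in 8.11% of all tested genes with a window. The other form of that region, TTCGAA, was in 0 of the 42 and in 1.42% of all. An E2F site (TTTCC followed directly by CGC, or TTTGG followed by CGC) was in 3 of the 42 (7.14%), in 5.1% of the genes raised by R1881 and in 3.11% of all. The relaxed androgen response element was found in 0 of these 42.

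The genes of the first form with the lowest interactions among those named were not on the cell cycle list. TUBA3D, an alpha-tubulin with near-identical copies, was at 0.347, 0.914, 0.428 and 0.545 CPM in vehicle libraries and 1.66, 1.53, 2 and 3.06 CPM with SNX631. It reached 108 to 125 CPM with R1881 and 115 to 120 CPM with both, so that the levels under androgen overlapped and those without it did not (interaction -1.80 ± 0.34, FDR = 6.17e-05). PHLDB2, a protein of the cell cortex, was at 1.71 to 3.08 CPM in vehicle, 5.53 to 8.12 CPM with SNX631, 25.8 to 29.3 CPM with R1881 and 23.3 to 25.5 CPM with both (interaction -1.58 ± 0.18, FDR = 6.93e-09). ADRB1, the beta-1 adrenergic receptor, was at 0.428 to 0.914 CPM in vehicle libraries and 1.14 to 3.23 CPM in the other 3 groups (interaction -1.54 ± 0.38, FDR = 0.00353), with an FDR of 0.0135 without vehicle replicate 3 and 0.0201 without R1881 replicate 2.

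The 14 raised genes with a stronger rise were led by SOX9, CNTNAP3, TENM1, PRRT2, CA5BP1 and HPGD. SOX9, a transcription factor of prostate development, was at 2.95, 3.12, 4.11 and 2.73 CPM in vehicle and 1.92, 2.46, 2.4 and 2.21 CPM in SNX631 libraries. It rose to 11.3, 8.03, 8.36 and 9.2 CPM with R1881 and to 16.7, 16, 16.1 and 17.6 CPM with both, without overlap between the groups (interaction 1.37 ± 0.20, FDR = 2.99e-06). CNTNAP3, a contactin-associated cell adhesion protein, rose 2.18-fold without and 6.57-fold with SNX631 (interaction 1.59 ± 0.24, FDR = 5.75e-06). TENM1, a teneurin, rose 1.57-fold and 3.69-fold (interaction 1.23 ± 0.21, FDR = 3.46e-05).

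NR4A1, an orphan nuclear receptor and the only one of 25 immediate-early and AP-1 genes called for the interaction (0.373% of all genes were called higher), rose from 8.86 to 10.8 CPM in vehicle libraries to 26.8 to 34.1 CPM with R1881. At an unadjusted p under 0.05, 4 of the 25 were lower and 5 higher. With both agents NR4A1 was at 40.4 to 44.1 CPM (interaction 0.59 ± 0.13, FDR = 0.00126). That call was lost, at 0.51 to 0.56, without vehicle replicate 2, SNX631 replicate 1, R1881 replicate 1 or 4, or replicate 3 with both. CA5BP1, a pseudogene that overlaps CA5B, was at 12.4 to 14.8 CPM with R1881 and 32.9 to 34.7 CPM with both (interaction 1.26 ± 0.11, FDR = 3.4e-11), and counts of these overlapping genes are uncertain. HPGD, which inactivates prostaglandins, had 1 to 3 counts in each SNX631 library and reached a mean of 11.4 CPM with both agents, at least 46.2-fold higher against the floor. Its levels under androgen overlapped, at 10.4 to 12.5 CPM with R1881 and 10.3 to 12.1 CPM with both. Its call had an FDR of 0.01 to 0.0181 without vehicle replicate 2 or SNX631 replicate 1, 2 or 4.

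Among the 17 lowered genes with a stronger fall, the level was highest with SNX631 alone in 15 and lowest with both agents in 14. These counts follow in large part from the selection, as all 17 were called lower with R1881 in both inhibitor states and their interactions are negative. TMTC1, a membrane protein of O-mannosylation, was at 14.3, 14.6, 15.3 and 14.3 CPM in vehicle and 26.3, 28.2, 28.4 and 30 CPM in SNX631 libraries. It fell to 6.27, 4.97, 5.7 and 5.96 CPM with R1881 and to 4.31, 4.42, 3.5 and 3.73 CPM with both, a 2.57-fold fall without and a 7.08-fold fall with the inhibitor (interaction -1.46 ± 0.14, FDR = 3.8e-10). RDH10, a retinol dehydrogenase, was at 43.9 to 47.5 CPM with SNX631 and 21.4 to 27.4 CPM in vehicle libraries, while its ranges with R1881 and with both overlapped (interaction -0.99 ± 0.11, FDR = 3.35e-08). ADD3, an adductin of the membrane skeleton, differed in the other way: its starting levels overlapped, and it fell to 37.4 to 41.3 CPM with R1881 and to 21.1 to 25 CPM with both (interaction -0.85 ± 0.07, FDR = 5.13e-12).

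LEF1, a transcription factor of the Wnt pathway, was at 16.2, 16.2, 19 and 17.8 CPM in vehicle and 24.6, 23.9, 22.2 and 24.1 CPM in SNX631 libraries. It fell to 8.04, 6.79, 6.76 and 6.84 CPM with R1881 and to 5.98, 5.42, 4.94 and 5.85 CPM with both (interaction -0.81 ± 0.13, FDR = 1.67e-05). Its promoter window is shown for AGAACA, an arm of the androgen response element, in capitals, at chr4:108166302-108166551 on the minus strand. The window is set by the RefSeq start. The GENCODE annotation of LEF1 reaches 108168956, so the window lies inside that gene span and not upstream of it.
LEF1: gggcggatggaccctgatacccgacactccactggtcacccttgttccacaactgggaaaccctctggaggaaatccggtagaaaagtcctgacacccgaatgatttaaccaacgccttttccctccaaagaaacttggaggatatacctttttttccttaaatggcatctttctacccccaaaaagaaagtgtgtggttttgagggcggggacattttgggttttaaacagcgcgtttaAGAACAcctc
This hexamer, searched on both strands and also part of some full elements, was in 6 of the 12 genes of this class with a window and in 7.34% of all. It was in 2 of 12 lowered, weaker genes, 1 of 10 raised, stronger genes, 4 of 60 raised, weaker genes, and 2 of 22 higher and 0 of 30 lower genes not called for R1881. The share among all genes lowered by R1881 was not counted. Several motifs were counted in small classes, and these shares were not tested.

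The 18 lowered genes with a weaker fall included TRNP1, a nuclear protein of cortical development. It fell from 10.2 to 14.2 CPM in vehicle libraries to 6.54 to 7.19 CPM with R1881 but was at 13.6 to 14.9 CPM with both agents, a range that overlapped the 10.7 to 14.5 CPM of SNX631 alone (interaction 1.00 ± 0.14, FDR = 2.09e-06). HMGN2P46, a pseudogene transcript, was at 17.8 to 21.5 CPM in vehicle, 3.91 to 4.45 CPM with SNX631, 9.19 to 12.8 CPM with R1881 and 4.78 to 7.17 CPM with both (interaction 1.26 ± 0.17, FDR = 5.17e-07). Under SNX631 its fall was thus not only weaker: all libraries with both agents lay above those with SNX631 alone, by 1.39-fold, a difference under the fold limit.

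In the 42 genes with a lower interaction that were not called for R1881 alone, 33 were lowered by R1881 in the presence of SNX631. This count follows largely from the selection, as the R1881 effect with SNX631 is the effect without it plus the interaction. BMP6, a bone morphogenetic protein, was at 4.95, 5.79, 4.8 and 6.39 CPM in vehicle and 26.9, 25.8, 27.1 and 31.3 CPM in SNX631 libraries, a 5.02-fold rise. With both agents it was at 8.45, 6.56, 7.62 and 6.29 CPM and with R1881 at 3.66, 3.31, 4.09 and 3.86 CPM, so that R1881 lowered it 3.84-fold under SNX631 and by 1.48-fold, under the fold limit, without it (interaction -1.38 ± 0.17, FDR = 3.4e-07). EBF2, an early B-cell factor, went from 5.33 to 7.58 CPM with SNX631 alone to 1.92 to 2.63 CPM with both, while the vehicle and R1881 ranges overlapped (interaction -1.71 ± 0.24, FDR = 1.84e-06).

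JAG1, a Notch ligand, was at 41.3 to 44.3 CPM in vehicle, 35.5 to 41.3 CPM with SNX631, 55.3 to 64 CPM with R1881 and 30.6 to 33.8 CPM with both (interaction -0.78 ± 0.07, FDR = 5.06e-10). R1881 alone raised JAG1 1.41-fold, without overlap but under the fold limit. In the presence of SNX631, R1881 lowered JAG1 1.22-fold, also under that limit. TUBB3, a neuronal tubulin that overlaps a read-through gene, was at 46.9 to 51.3 CPM in vehicle and R1881 libraries together, highest at 57.3 to 64.3 CPM with SNX631 alone and at 34.9 to 39.9 CPM with both (interaction -0.71 ± 0.07, FDR = 2.35e-10). BMP6, JAG1 and LEF1 were the 3 of 28 tested genes of the Wnt, Notch, BMP and TGF-beta list called lower, and 0 were called higher, against 0.821% and 0.373% of all genes. At an unadjusted p under 0.05, 8 of the 28 were lower and 4 higher by edgeR, and DESeq2 called 3 lower and 0 higher.

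Of the 28 genes with a higher interaction that were not called for R1881 alone, 18 were raised by R1881 in the presence of SNX631, which likewise follows largely from the selection. ARHGAP28, a GTPase-activating protein, was at 17.3, 17.9, 19.7 and 18.1 CPM in vehicle and 10.7, 10.4, 10.4 and 10.5 CPM in SNX631 libraries. With R1881 it was at 25.5, 27.4, 24.4 and 26.6 CPM and with both at 39, 38.8, 40.2 and 34 CPM (interaction 1.34 ± 0.10, FDR = 3.39e-13). SNX631 thus lowered ARHGAP28 without androgen, and the groups did not overlap. R1881 alone raised ARHGAP28 1.43-fold, under the fold limit.

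**Figure D4:**
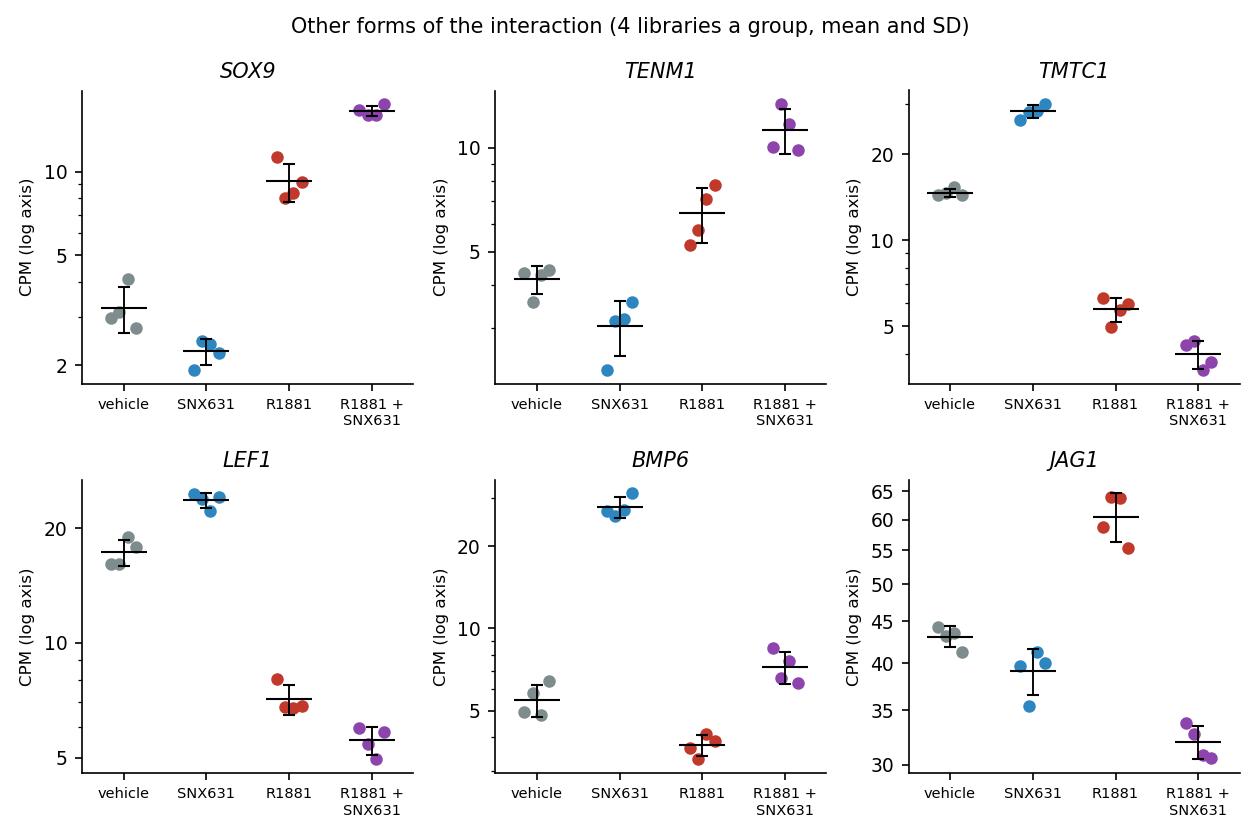
CPM in each of 16 libraries (points, log axis) with the group mean and SD (bars) for genes of the other classes. SOX9 is highest with both agents at 16 to 17.6 CPM, TMTC1, LEF1 and BMP6 are highest with SNX631 alone, and JAG1 is highest with R1881 alone.

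Of the 7 genes of the kinase module, 0 passed both limits for the interaction by edgeR or DESeq2 and 1, CDK19, passed the FDR alone. At an unadjusted p under 0.05 by edgeR, 3 were lower and 1 higher. CDK19 was at 270 to 275 CPM in vehicle, 304 to 319 CPM with SNX631, 335 to 362 CPM with R1881 and 422 to 458 CPM with both (interaction 0.14 ± 0.04, FDR = 0.00748, under the fold limit). CDK8 was at 41.7 to 55.6 CPM without and 20.2 to 24.5 CPM with R1881, and its interaction was -0.20 ± 0.09 (FDR = 0.151).

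Other gene lists had few or no calls. Of 39 tested genes of sterol and fatty acid synthesis, 22 of which R1881 raised (9.7% of all genes), ELOVL7 was the only one called for the interaction (1.19% of all genes), with 9 lower and 10 higher at an unadjusted p under 0.05 by edgeR. SOX9 was the only one called of 32 cofactors and lineage factors of androgen signalling, and HERC5 the only one of 34 interferon response genes. Over all genes 1.19% were called, and a single call in lists of this size sets neither apart. At an unadjusted p under 0.05, 12 cofactor and lineage genes were lower and 10 higher, and 5 interferon genes were lower and 5 higher. In the list of MYC and ribosome biogenesis 0 of 39 genes were called by edgeR or DESeq2, with 4 lower and 12 higher at an unadjusted p under 0.05 by edgeR. In the list of the amino acid and unfolded protein response 0 of 39 were called by either tool, with 3 lower and 15 higher at that unadjusted p. Of 26 other Mediator subunits 0 were called by either tool, with 1 lower and 2 higher.

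The same contrast can be read as the SNX631 effect with R1881 minus the SNX631 effect without it, which the plot of SNX631 effects shows for the 192 genes.

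**Figure D5:**
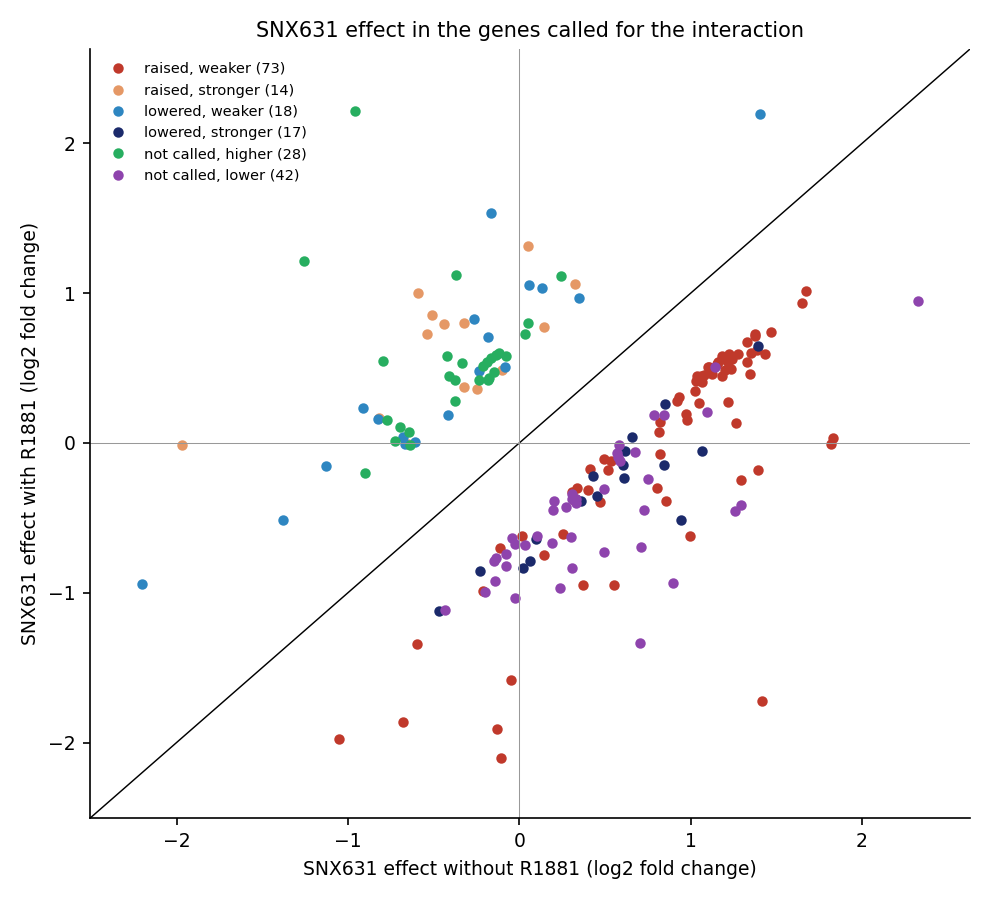
Log2 fold change by SNX631 without R1881 (horizontal) and with R1881 (vertical) for the 192 genes, coloured by class, with the line of equal effects. Most raised, weaker genes lie to the right of 0 and below the line, where 48 were called higher with SNX631 without R1881, and a smaller set lies below 0 on the vertical axis, where 15 were called lower with R1881.

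A second interaction is available in the series from 12 libraries treated for 24 h, with Senexin B, another CDK8 and CDK19 inhibitor, and R1881 at 0.1 nM. By the labels Senexin B was used at 1 µM, a dose that differs from the one in the study's text. In a fit of all 28 libraries it was called in 104 genes (0.624%), 45 higher (0.27%) and 59 lower (0.354%). Inhibitor, dose, time and experiment differ between the 2 interactions and cannot be told apart. A test of the difference in that fit called 9 of 16672 genes (0.054%), 6 higher (0.036%) and 3 lower (0.018%), of which NCAPD3 and SLC6A9 were among the 192. A separate fit of the 12 libraries called the 24 h interaction in 92 of 15948 genes. It tested 190 of the 192 genes and called 51 of them the same way as at 72 h and 0 the other way. NCAPD3, a condensin subunit that R1881 raised, had an interaction of -0.60 ± 0.05 at 72 h and 0.21 ± 0.08 at 24 h (difference -0.80 ± 0.10, FDR = 5.705e-06). SLC6A9, a glycine transporter, had 0.75 ± 0.13 and -0.52 ± 0.14 (difference 1.28 ± 0.20, FDR = 0.000108).

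Totals were 9846595 to 15248512 counts per library, and the common biological coefficient of variation was 2.38%. The luminal markers were all tested and summed to 3678 to 5882 CPM in every library, while basal, immune and endothelial markers summed to at most 0.701, 1.09 and 4.55 CPM. Stromal markers, mainly COL1A1, summed to 34.7 to 38.5 CPM in vehicle, 31.8 to 34.3 with SNX631, 19 to 26.4 with R1881 and 14.4 to 17.2 with both. Their part in the results was not tested.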

How the data were processed

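Total RNA of LNCaP cells was sequenced after directional library preparation. The deposited file, made by the authors, was 1 table of expected counts for each gene, not scaled to depth, and 17% of the values above 0 at 72 h in it were fractional. The labels' processing notes name FastQC, cutadapt 2.8, STAR 2.7.2b, featureCounts from Subread 2.0.3 and the builds GRCh38.p13 and GRCm39. How fractions and strand were handled is not given in the sources used here. Of the entries, 61815 were human genes, and 2 others, at 0 counts throughout, were left out. Counts were rounded.

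edgeR 4.0.16 in R 4.3.3 was fitted to the 16 libraries of 72 h, with its quasi-likelihood test, TMM scaling and the filterByExpr limits of 10 (count) and 15 (total). Benjamini-Hochberg adjustment was over all 16074 genes. Groups came from the labels. Calls needed an FDR under 0.01 and a fold over 1.5. SE are Wald SE on the log2 scale, CPM used TMM totals, and SD are over 4 libraries. A floor of 3 counts per library covers counting error only, because no molecular identifiers are named and reads need not be separate molecules. The total per library, 9846595 to 15248512, limits precision for genes of few counts. All replicate pairs differed by more than sampling noise, and p values measure the spread between these libraries. The difference from 24 h used a fit of all 28 libraries.

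Named genes were, among called genes with a gene symbol and at least 1 CPM in the highest group, the 8 lowest raised and weaker, the 6 most extreme of each other R1881 class and the 4 highest and 4 lowest not called, and also KLK3, KLK2, the kinase module and called members of the gene lists. The classes, lists and named genes were chosen with earlier results of these data known. In the text, some named genes are left out, 1 gene of the rule is not reported here, and CAMKK2, SPDEF and the genes of the 24 h difference were chosen after their values were seen. Promoters are RefSeq windows, matched by symbol for 146 of the 192 called genes. The cell cycle and E2F motifs were searched after seeing the data. Alternatives were other scalings, filters and limits, DESeq2 1.42.0, a replicate block, all 28 libraries in 1 fit and leaving out each library. Scripts were tested on simulated data. Figures used matplotlib 3.10.9.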

Additional observations from a re-analysis of the deposited data

Results flagged for a closer look

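Single libraries stood apart from the other 3 of their group by Dixon's test on log2 CPM in 16 of 220 groups of the named genes, where chance alone flags about 1 in 20. R1881 replicate 1, which had the lowest total, gave 67.4 CPM for MED12 (others 83.7 to 85.5) and 8.04 CPM for LEF1 (others 6.76 to 6.84). R1881 replicate 2 gave 2.73 CPM for PLXNA2, 37.4 CPM for ADD3 and 1.32 CPM for CARTPT, and R1881 replicate 4 gave 12.1 CPM for HERC5. Among vehicle libraries, replicate 2 gave 3.58 CPM for TENM1, 10.8 CPM for NR4A1 and 119 CPM for ADD3, and replicate 4 gave 187 CPM for MED13 and 21.4 CPM for RDH10. SNX631 replicate 4 gave 23.1 CPM for MCM10. With both agents, replicate 1 gave 20.2 CPM for CDK8, replicate 2 gave 1.64 CPM for CNIH3 and 1.78 CPM for EFHC2, and replicate 4 gave 107 CPM for MED13.

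The interaction at 72 h minus that at 24 h was called in 9 genes (edgeR's quasi-likelihood test). It was higher for SLC6A9 (1.28), SLC7A11 (0.83), NOC3L (0.72), MTHFD1L (0.71), PSAT1 (0.65) and RCN1 (0.60), and lower for NCAPD3 (-0.80), UGT2B11 (-0.75) and ALDH1A3 (-0.69). PSAT1 makes serine, SLC6A9 carries glycine, SLC7A11 exchanges cystine for glutamate and MTHFD1L is a mitochondrial folate enzyme. SLC7A11 had an interaction of 0.28 ± 0.09 at 72 h and -0.55 ± 0.11 at 24 h, and PSAT1 had 0.57 ± 0.04 and -0.08 ± 0.06. Inhibitor, doses, time and experiment cannot be told apart in this difference.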

How the results depend on the processing

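Over up to 27 alternatives, no called interaction of a named gene changed direction (DESeq2 gave an adjusted p for 38 of the 53). Of 53 named genes called, 34 stayed called whichever library was left out, 4 (MKI67, NR4A1, HPGD and HERC5) lost the call under other scalings, filters, prior counts, DESeq2 or the fit of 28 libraries, and 39 lost it under the test against a fold of 1.5. The 15 named genes without a DESeq2 adjusted p were not called by DESeq2 and are not counted as lost there.

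With an FDR under 0.05 and no fold limit, the interaction was called in 2034 genes, 893 higher and 1141 lower: 585 raised and weaker, 412 raised and stronger, 286 lowered and weaker, 376 lowered and stronger, and, of those not called for R1881, 195 higher and 180 lower. Of the 585, 328 were called higher with SNX631 without R1881 and 289 lower with SNX631 with R1881, and 45 cell cycle genes were called lower. The R1881 effect was called in 9985 genes without and 10562 with SNX631, the SNX631 effect in 5864 without and 6874 with R1881, and the difference from 24 h in 151.

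In the test against a fold of 1.5 the interaction was called in 24 genes, 6 higher and 18 lower: 7 raised and weaker (4 higher with SNX631 without R1881, 2 lower with SNX631 with R1881), 2 raised and stronger, 1 lowered and weaker, 3 lowered and stronger, and 3 higher and 8 lower of those not called, with 0 cell cycle genes. The SNX631 effect was called in 273 genes without and 140 with R1881. With library totals only, 9 genes were raised and stronger. With DESeq2, 158 genes were called, 157 of them among the 192, and 9 raised and weaker genes were lower with SNX631 with R1881. Sorted by the mean R1881 effect, 24 were raised and stronger, 10 lowered and weaker and 33 lowered and stronger.

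Leaving out 1 library gave 166 to 201 called genes, of which at least 158 were among the 192, and 10 (without R1881 replicate 3) to 20 (without vehicle replicate 3) lowered and weaker genes. Same-numbered libraries of different groups did not deviate together (24 pairs, r from -0.0486 to 0.0942), so the replicate number was not used as pairing. Only 3 of 16 libraries correlated best with their own number. With the replicate block, 188 genes were called, 186 of them among the 192, and 10 for the difference from 24 h. Leaving out libraries for that difference gave 7 to 13 genes and was chosen after seeing the data, as were the alternatives for counts by arm and list. Differences in genes with few counts are limited by depth, and the causes of these changes were not tested.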
